A study of Mus musculus with 49 samples.

Results

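The integrated stress response (ISR) genes described here are 10 genes, Atf4 and the 9 targets Atf3, Atf5, Ddit3, Trib3, Chac1, Sesn2, Fgf21, Gdf15 and Adm2. They were taken by symbol from the 45252 genes of a table of raw read counts, in which all 10 were present. The genes, and the gene lists set beside them, were chosen with earlier results of these data known. Of these 10, 7 had enough counts to pass the filter on low counts that 18220 genes passed. Fgf21, Gdf15 and Adm2 did not pass, with no more than 22 reads in any mouse, and are described by their counts.

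The counts came from RNA of the neocortex of 49 mice on a mixed C57BL/6J × C3H/HeJ background, with 1 library per mouse. The 32 bigenic rNLS8 mice carried NEFH-tTA and tetO-hTDP-43ΔNLS, in which a neurofilament promoter drives the transactivator in neurons and a human TDP-43 that lacks its nuclear localization signal is made without doxycycline. The 17 ctrl PBS mice (10 females, 7 males) were monogenic littermates with the tetO-hTDP-43ΔNLS allele alone, and they received PBS. The bigenic mice received PBS (TDP-PBS, n = 10, 4 females and 6 males), peptides 10 and 12 of TDP-43 (TDP10 + 12, n = 10, 6 females and 4 males) or peptide 15 with the disease-associated phosphoserines (TDP15, n = 12, 5 females and 7 males). All mice were treated from 8 weeks of age, 5 times before and 1 time after induction. Where peptide was given, it was coupled to the carrier protein ovalbumin, and the dose was 40 µg of conjugate in total. The PBS groups received PBS in place of the conjugates. Doxycycline was withdrawn from all of them at 25.5 weeks and tissue was taken at 28.5 weeks. Peptides were given with adjuvants, and the sources used here do not say whether the PBS mice received them. No ctrl mice with peptide were among the libraries.

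Total counts were 17775738 to 21033608 per mouse, and at this depth a floor of 3 counts was worth 0.139 to 0.165 CPM (read counts scaled to the library total and edgeR's TMM factors). Neuron markers were abundant in every library, with a summed level of at least 4432 CPM over 6 genes. In 4 bigenic mice (1 TDP-PBS, 2 TDP10 + 12, 1 TDP15) the summed level of 6 choroid plexus markers exceeded that of every ctrl PBS mouse, 1084 to 1708 CPM against at most 373, so results were also computed without these 4. Endogenous Tardbp, whose transcript TDP-43 itself represses, had 118 ± 14 CPM in TDP-PBS (SD, n = 10) and 146 ± 9.27 in ctrl PBS (SD, n = 17), a log2 fold change of −0.30 (SE 0.05, edgeR adjusted p = 1.54e-06). The sources used here do not say whether transgene reads were assigned to it, and 1817 bases of its exons overlap Masp2 on the opposite strand.

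The ISR is the pathway by which a cell slows protein synthesis under stress. The kinases PERK, GCN2, HRI and PKR, which sense unfolded proteins in the endoplasmic reticulum, missing amino acids, mitochondrial or heme stress and double-stranded RNA, phosphorylate the initiation factor eIF2 on its alpha subunit. General translation falls while the mRNA of ATF4, a basic leucine zipper factor, is translated more, and ATF4 then drives genes of amino acid supply, redox balance and, where stress persists, cell death. ATF4 is therefore controlled largely through translation, and its protein was not measured here. In bulk tissue, more RNA per cell and more cells that make it cannot be told apart.

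ATF4 binds with C/EBP partners to a composite site, the C/EBP-ATF response element (CARE). In the RefSeq promoters of GRCm38.p6, which run from 250 bases before to 50 bases after each gene's start site, the CARE core TGATGNAA was searched on both strands. It was found in 3.97% of all 32851 promoters and in 4 of the 12 promoters of the 10 genes (Atf5 and Gdf15 have 2 each), those of Atf3, Chac1, Fgf21 and Trib3. The palindromic CRE, TGACGTCA, was in 1.79% of all promoters and in 0 of the 12, and its shorter core TGACG was in 20.8% of all and in those of Atf3, Atf4, Chac1, Fgf21 and Trib3. The 4 stretches with a CARE core are printed because they let the sites of the 4 genes be set side by side. Each is the gene's sense strand, 5′ to 3′, with the core in capitals. The first 3 are the 250 bases before the start site, on the minus strand of chr1:191183334-191183583 (Atf3), the plus strand of chr2:119350992-119351241 (Chac1) and the minus strand of chr7:45615491-45615740 (Fgf21). The last is bases 4 to 33 after the start site, on the minus strand of chr2:152344028-152344057 (Trib3).
Atf3: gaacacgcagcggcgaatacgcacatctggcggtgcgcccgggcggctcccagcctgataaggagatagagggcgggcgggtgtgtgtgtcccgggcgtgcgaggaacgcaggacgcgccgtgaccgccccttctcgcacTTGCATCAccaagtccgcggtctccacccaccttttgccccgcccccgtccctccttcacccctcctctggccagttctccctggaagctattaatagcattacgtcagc
Chac1: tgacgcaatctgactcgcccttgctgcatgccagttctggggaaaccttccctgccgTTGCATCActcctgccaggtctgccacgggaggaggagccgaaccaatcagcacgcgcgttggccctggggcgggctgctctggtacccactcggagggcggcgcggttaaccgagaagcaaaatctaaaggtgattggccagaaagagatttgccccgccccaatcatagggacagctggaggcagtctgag
Fgf21: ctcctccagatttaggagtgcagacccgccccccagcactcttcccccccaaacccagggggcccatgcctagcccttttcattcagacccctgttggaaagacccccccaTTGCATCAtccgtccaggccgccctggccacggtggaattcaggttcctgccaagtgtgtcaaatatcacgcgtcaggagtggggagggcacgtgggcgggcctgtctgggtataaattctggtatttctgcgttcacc
Trib3: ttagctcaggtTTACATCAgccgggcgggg
The core read TTGCATCA on the sense strand of Atf3 (bases −110 to −103 from the start site), Chac1 (−193 to −186) and Fgf21 (−139 to −132), and TTACATCA in Trib3 (15 to 22). These matches describe letters in a window and are not measured binding sites.

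All 7 ISR genes past the filter rose in TDP-PBS relative to ctrl PBS, by 1.45-fold (Atf5) to 7.68-fold (Atf3), where 21.9% of the 18220 genes tested were called higher. Atf3 and Trib3, with medians of 0.430 and 0.415 CPM in ctrl PBS, had too few ctrl PBS mice at the filter's minimum count to pass on those alone. These 2 genes were tested only because of the bigenic mice, in which they were higher, so their place among the 7 is not independent of that difference. All 7 were also higher in TDP10 + 12 and in TDP15, where 20.8% and 23.6% of genes were called higher. The median log2 fold change of the 7 genes was 0.81 in TDP-PBS, 0.72 in TDP10 + 12 and 0.75 in TDP15, against medians between −0.01 and 0.01 over all genes tested. These 3 comparisons share the ctrl PBS mice. Because the genes were chosen with earlier results of these data known, their count called higher is not independent support. Calls are from edgeR's quasi-likelihood test over all 49 mice at a Benjamini-Hochberg adjusted p-value under 0.05.

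**Figure D1:**
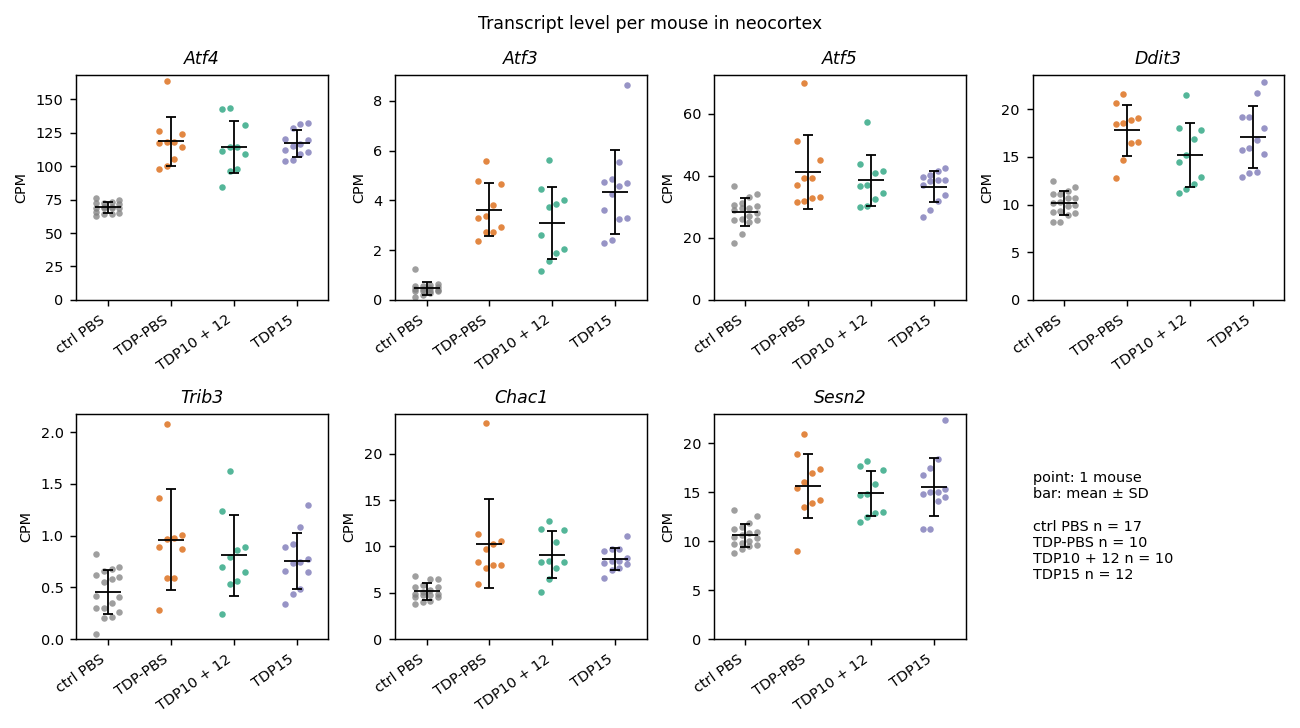
CPM of the 7 ISR genes past the count filter, with 1 panel per gene, 1 point per mouse and bars for the mean ± SD of ctrl PBS (n = 17), TDP-PBS (n = 10), TDP10 + 12 (n = 10) and TDP15 (n = 12). For Atf4 all 32 bigenic mice lie above all ctrl PBS mice, as for 1.16% of genes tested. For Atf3 31 of 32 do, a count whose share over all genes was not computed, while Trib3 overlaps broadly.

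Atf4 (GRCm38.p6, chr15:80255184-80257545, plus strand) had the highest level of the 10 genes per kilobase of exon, 29.3 ± 1.65 CPM per kb in ctrl PBS (SD, n = 17). CPM spanned 62.4 to 76.4 in the ctrl PBS mice around a median of 69.0, and 98.0 to 163 around 118 in the TDP-PBS mice. With peptides 10 and 12 the span was 84.2 to 143 CPM around 113, and with peptide 15 it was 104 to 132 around 116. Every bigenic mouse was above every ctrl PBS mouse, a separation seen for 1.16% of the genes tested. The increase as a log2 fold change was 0.78 (SE 0.06) in TDP-PBS, 0.72 (SE 0.06) in TDP10 + 12 and 0.76 (SE 0.06) in TDP15 (edgeR adjusted p = 9.87e-15, 1.18e-13 and 3.10e-15). The coefficient of variation was 5.62% in ctrl PBS, 15.5% in TDP-PBS, 17.1% in TDP10 + 12 and 8.38% in TDP15.

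Atf3 (chr1:191170296-191183333, minus strand), a stress-induced zipper factor that is also an early gene of nerve injury, had the largest fold change of the 7. It had 2 to 25 reads per mouse in ctrl PBS and 23 to 170 in bigenic mice. CPM spanned 0.108 to 1.25 in the ctrl PBS mice around a median of 0.430, and 2.38 to 5.59 around 3.32 in the TDP-PBS mice. With peptides 10 and 12 the span was 1.16 to 5.64 CPM around 3.16, and with peptide 15 it was 2.29 to 8.63 around 4.41. Only 1 of the 32 bigenic mice, in TDP10 + 12, fell below the highest ctrl PBS mouse. For counts short of all 32, here and for the other genes, the share of all genes was not computed. On the log2 scale the difference from ctrl PBS was 2.94 (SE 0.23) in TDP-PBS, 2.71 (SE 0.24) in TDP10 + 12 and 3.20 (SE 0.22) in TDP15 (edgeR adjusted p = 4.23e-15, 1.03e-13 and 4.02e-17). In TDP-PBS this was the 27th largest increase of 18220 genes.

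Ddit3 (chr10:127290793-127296291, plus strand), which encodes CHOP, a factor known for promoting cell death after long stress, had 8.16 to 12.4 CPM in the ctrl PBS mice, median 10.2, and 12.8 to 21.6 CPM in the TDP-PBS mice, median 18.5. Its level was 11.3 to 21.5 CPM after peptides 10 and 12, median 14.8, and 12.9 to 22.9 CPM after peptide 15, median 16.4. Above every ctrl PBS mouse were 29 of 32 bigenic mice, and the 3 that were not belonged to TDP10 + 12. The share of all genes that separate in a single group was not computed. Ddit3 was not called between TDP10 + 12 and TDP-PBS (edgeR adjusted p = 0.929). The log2 fold change was 0.81 (SE 0.09) in TDP-PBS, 0.58 (SE 0.09) in TDP10 + 12 and 0.75 (SE 0.09) in TDP15 (edgeR adjusted p = 4.00e-10, 1.33e-06 and 7.61e-10). In the GENCODE annotation of GRCm38, 68 bases of Ddit3 exons overlap exons of Mars and 13 overlap Gm4189, both on the opposite strand, and the strand setting of the counting is not given in the sources used here. Mars, listed in the count table as Mars1, had a log2 fold change of −0.07 (SE 0.04, edgeR adjusted p = 0.131) in TDP-PBS.

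Atf5 (chr7:44812256-44816658, minus strand), a zipper factor that is translated under stress much as ATF4 is, had the smallest fold change. CPM spanned 18.4 to 36.8 in the ctrl PBS mice around a median of 28.9, and 31.6 to 70.0 around 38.0 in the TDP-PBS mice. With peptides 10 and 12 the span was 30.1 to 57.4 CPM around 36.9, and with peptide 15 it was 26.6 to 42.6 around 38.4. The groups overlapped, with 19 of 32 bigenic mice above every ctrl PBS mouse. The increase as a log2 fold change was 0.53 (SE 0.10) in TDP-PBS, 0.44 (SE 0.10) in TDP10 + 12 and 0.36 (SE 0.10) in TDP15 (edgeR adjusted p = 3.32e-05, 0.000549 and 0.00213). Exons of Atf5 share 82 bases with those of Nup62 and Il4i1 on the opposite strand.

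Of the effectors, Chac1 (chr2:119351242-119354326, plus strand) encodes an enzyme that degrades glutathione, the main antioxidant of the cell. It had 3.8 to 6.84 CPM in the ctrl PBS mice, median 4.90, and 5.99 to 23.3 in the TDP-PBS mice, median 9.0. The peptide groups had 5.12 to 12.8 CPM, median 8.36 (TDP10 + 12), and 6.62 to 11.2 CPM, median 8.43 (TDP15). Above every ctrl PBS mouse were 28 of 32 bigenic mice, and 1 TDP-PBS mouse stood apart at 23.3 CPM, where the next had 11.4. On the log2 scale the difference from ctrl PBS was 1.0 (SE 0.14) in TDP-PBS, 0.82 (SE 0.14) in TDP10 + 12 and 0.75 (SE 0.13) in TDP15 (edgeR adjusted p = 3.51e-08, 2.74e-06 and 5.66e-06), and with each mouse left out in turn the value in TDP-PBS lay between 0.80 and 1.08.

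Sesn2 (chr4:132492804-132510456, minus strand), a sestrin that restrains the growth kinase complex mTORC1, had 8.76 to 13.2 CPM in the ctrl PBS mice, median 10.5, and 9.05 to 21 in the TDP-PBS mice, median 15.8. The peptide groups had 12.0 to 18.2 CPM, median 14.8 (TDP10 + 12), and 11.3 to 22.3 CPM, median 15.1 (TDP15). Above every ctrl PBS mouse were 25 of 32 bigenic mice. The log2 fold change was 0.56 (SE 0.09) in TDP-PBS, 0.49 (SE 0.09) in TDP10 + 12 and 0.55 (SE 0.09) in TDP15 (edgeR adjusted p = 1.81e-06, 2.36e-05 and 7.68e-07).

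Trib3 (chr2:152337425-152344060, minus strand), a pseudokinase that inhibits ATF4 and the kinase AKT and so closes a feedback loop, was close to the limit of detection, with 1 to 16 reads per mouse in ctrl PBS and 5 to 42 in bigenic mice. CPM spanned 0.0494 to 0.825 in the ctrl PBS mice around a median of 0.415, and 0.286 to 2.08 around 0.928 in the TDP-PBS mice. With peptides 10 and 12 the span was 0.245 to 1.62 CPM around 0.747, and with peptide 15 it was 0.344 to 1.29 around 0.739. The groups overlapped, with 15 of 32 bigenic mice above every ctrl PBS mouse. The increase as a log2 fold change was 1.07 (SE 0.26) in TDP-PBS, 0.83 (SE 0.27) in TDP10 + 12 and 0.72 (SE 0.26) in TDP15 (edgeR adjusted p = 0.000734, 0.0103 and 0.0175). It was the least certain of the 7, and with 1 mouse left out at a time its adjusted p-value reached 0.0462 in TDP10 + 12 (edgeR).

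Averaged over the 3 bigenic groups, the log2 fold change against ctrl PBS was 2.95 for Atf3 (SE 0.20), 0.87 for Trib3 (SE 0.21), 0.86 for Chac1 (SE 0.11), 0.75 for Atf4 (SE 0.05), 0.71 for Ddit3 (SE 0.07), 0.53 for Sesn2 (SE 0.07) and 0.45 for Atf5 (SE 0.08). All 7 were called higher, as were 27.1% of genes tested. Atf3 and Trib3 passed the filter only because of the bigenic mice, so their place in this count is not independent of the difference. By level per kilobase of exon their order was the same in every group: Atf4, Atf5, Ddit3, Chac1, Sesn2, Atf3 and Trib3. Chac1 and Sesn2 were within each other's spread in ctrl PBS, at 3.15 ± 0.544 and 3.05 ± 0.344 CPM per kb (SD, n = 17), as were Atf3 and Trib3, at 0.216 ± 0.114 and 0.214 ± 0.101. In bigenic mice Atf3 stood at 1.73 ± 0.694 CPM per kb and Trib3 at 0.393 ± 0.180 (SD, n = 32). Without the 4 mice with high choroid plexus markers all 7 were still called in each of the 3 comparisons, with the largest adjusted p-value at 0.0461 for Trib3 in TDP10 + 12 (edgeR).

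**Figure D2:**
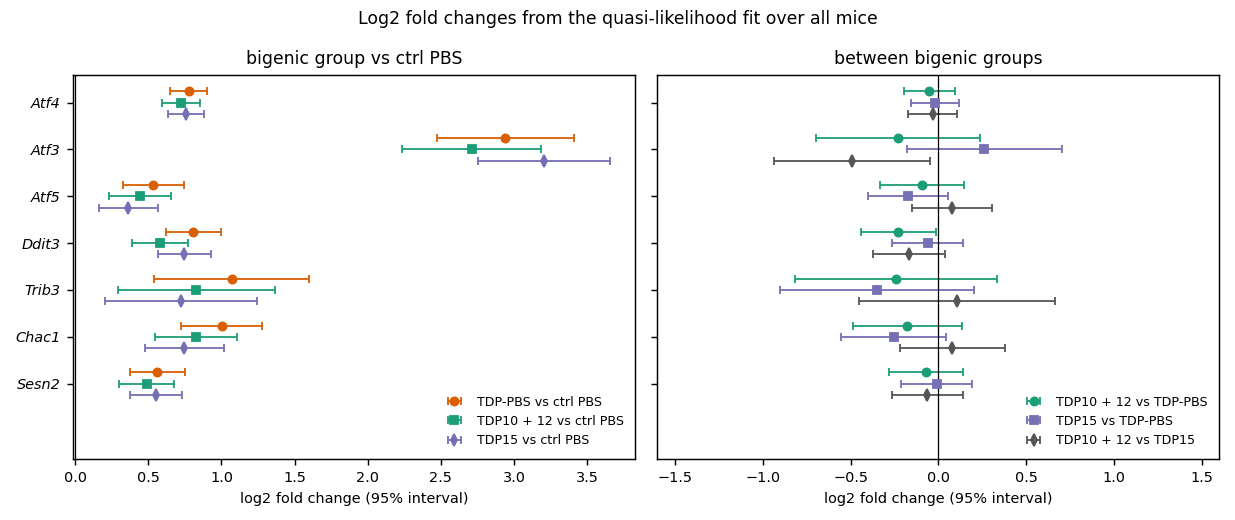
Log2 fold changes with 95% intervals of the 7 genes, on the left for each bigenic group against ctrl PBS and on the right between bigenic groups, with 1 symbol per comparison and a line at 0. The intervals on the left all lie above 0 and span 0.36 (Atf5, TDP15) to 3.20 (Atf3, TDP15) in their centres, while on the right 19 of 21 intervals include 0.

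Between the bigenic groups none of the 7 genes was called in any of the 3 comparisons, in which 0%, 0% and 0% of the 18220 genes were called by edgeR and 953 (TDP10 + 12 against TDP-PBS), 552 (TDP15 against TDP-PBS) and 1244 (TDP10 + 12 against TDP15) had an unadjusted p-value under 0.05. DESeq2 called 0 of the 7 as well. All 7 point estimates of TDP10 + 12 against TDP-PBS were below 0, from −0.24 (Trib3) to −0.05 (Atf4). Leaving out TDP-PBS replicate 4, the mouse with 163 CPM of Atf4, turned 3 of them above 0, Atf4 to 0.01, Atf5 to 0.02 and Chac1 to 0.04. The 3 genes below the filter had estimates above 0 in this comparison (edgeR without the filter), 0.55 for Fgf21 (SE 0.58, adjusted p = 0.877), 0.13 for Gdf15 (SE 0.62, adjusted p = 1) and 0.70 for Adm2 (SE 0.39, adjusted p = 0.713). Of the 7 genes, the 1 with an unadjusted p-value under 0.05 was Ddit3, at −0.23 (SE 0.11, unadjusted p = 0.0350, edgeR adjusted p = 0.929).

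The intervals say how large a difference the data leave room for. For Atf4 the 95% interval of the log2 difference was −0.20 to 0.09 in TDP10 + 12 against TDP-PBS and −0.16 to 0.12 in TDP15 against TDP-PBS, narrow beside its log2 fold change of 0.78 against ctrl PBS. For Trib3, TDP15 against TDP-PBS, it ran from −0.90 to 0.20, and for Chac1 from −0.55 to 0.04. Atf3 had a log2 difference between TDP10 + 12 and TDP15 of −0.49 (95% interval −0.94 to −0.05, unadjusted p = 0.0306, edgeR adjusted p = 0.681), and against TDP-PBS neither was called, with intervals of −0.70 to 0.24 and −0.18 to 0.70.

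The genotype difference was also compared between the sexes in the 27 mice that received PBS. Of 17363 genes tested, 0% were called for a genotype by sex interaction by edgeR, and 1097 had an unadjusted p-value under 0.05. Atf4 had the smallest p-value of the 7 genes, with a log2 fold change 0.26 larger in males than in females (SE 0.11, unadjusted p = 0.0197, adjusted p = 0.749). Its level was 70.5 ± 4.04 CPM in ctrl PBS females (SD, n = 10), 67.4 ± 3.06 in ctrl PBS males (SD, n = 7), 108 ± 10.8 in TDP-PBS females (SD, n = 4) and 125 ± 20.1 in TDP-PBS males (SD, n = 6). Chac1 had a difference of 0.51 (SE 0.28, edgeR adjusted p = 0.799), the largest in size. Both differences include TDP-PBS replicate 4, a male with 163 CPM of Atf4 and 23.3 of Chac1. The next highest TDP-PBS mice had 126 and 11.4 CPM.

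Fgf21, Gdf15 and Adm2 encode secreted factors. FGF21 and GDF15 are hormones released by stressed tissue that act on metabolism and appetite, and adrenomedullin 2 is a peptide of the calcitonin family that acts on vessels. All 3 lay at or near the limit that these libraries can show, and all 3 had more reads in bigenic mice.

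**Figure D3:**
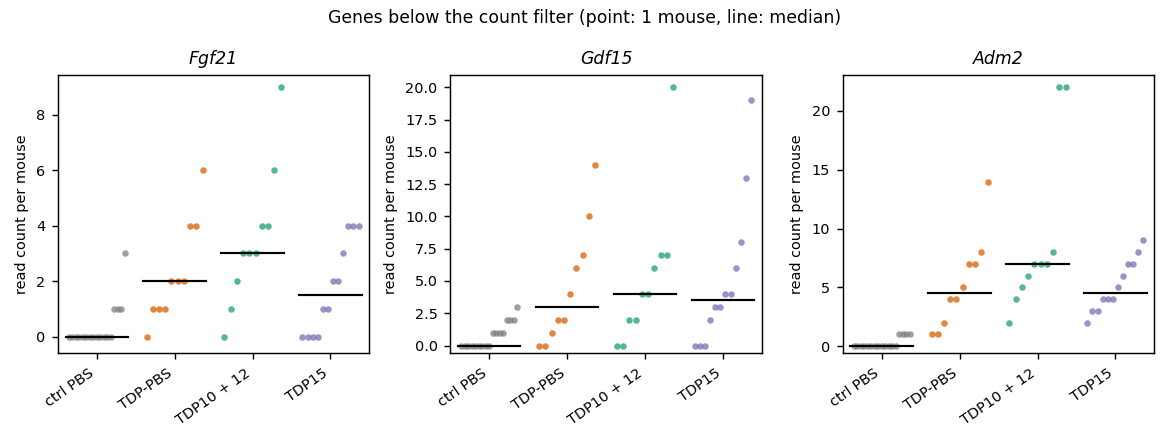
Read counts per mouse of Fgf21, Gdf15 and Adm2, with 1 point per mouse, sorted within each group, and a line at the median. In ctrl PBS no mouse has more than 3 reads of Fgf21 or Gdf15 or more than 1 of Adm2, while Adm2 has at least 1 read in all 32 bigenic mice.

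Adm2 (chr15:89322720-89324731, plus strand) had 4 reads in all over the 17 ctrl PBS mice, no more than 1 in any of them, and 205 reads over the 32 bigenic mice, all of which had at least 1. A TDP-PBS mouse had 1 to 14 reads, a TDP10 + 12 mouse 2 to 22 and a TDP15 mouse 2 to 9. By CPM 31 of 32 bigenic mice exceeded the whole ctrl PBS range. For TDP-PBS replicate 1 this came from library scaling only, as it had 1 read (0.0523 CPM), no more than the highest ctrl PBS mouse (0.0516 CPM). The share of all genes with as many bigenic mice above the ctrl PBS range was not computed. The mean was 0.317 ± 0.238 CPM in bigenic mice (SD, n = 32) and 0.0120 ± 0.0223 in ctrl PBS (SD, n = 17), the difference having a permutation p of 1e-05 (two-sided, the smallest that 100000 resamples can give). In an edgeR fit of all genes without the filter its log2 fold change was 4.11 (adjusted p = 1.14e-11). The ratio of read rates was 26.2, with an exact 95% Poisson interval of 10.1 to 96.9 that covers counting error only. Per kilobase of exon Adm2 was the lowest of the 10 genes in ctrl PBS and the eighth highest in bigenic mice, where it was 0.245 ± 0.183 CPM per kb (SD, n = 32), within the spread of Gdf15 (0.133 ± 0.138) and Fgf21 (0.129 ± 0.107).

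Fgf21 (chr7:45613890-45615490, minus strand) had 6 reads in all over ctrl PBS, in 4 of 17 mice, and 79 over the bigenic mice, in 26 of 32. Its counts reached 3 in ctrl PBS, 6 in TDP-PBS, 9 in TDP10 + 12 and 4 in TDP15, so the groups overlapped, with 10 of 32 bigenic mice above every ctrl PBS mouse. The mean was 0.123 ± 0.102 CPM in bigenic mice (SD, n = 32) and 0.0183 ± 0.0406 in ctrl PBS (SD, n = 17), with a two-sided permutation p of 0.000200 (edgeR without the filter, 2.37 on the log2 scale, adjusted p = 0.000202). The ratio of read rates was 6.72 (2.95 to 18.9).

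Gdf15 (chr8:70629393-70632470, minus strand) had 13 reads over ctrl PBS, in 8 of 17 mice, and 160 over the bigenic mice, in 25 of 32. Its counts reached 3 in ctrl PBS, 14 in TDP-PBS, 20 in TDP10 + 12 and 19 in TDP15, and 7 of 32 bigenic mice had none. The mean was 0.247 ± 0.256 CPM in bigenic mice (SD, n = 32) and 0.0397 ± 0.0512 in ctrl PBS (SD, n = 17), with a two-sided permutation p of 0.00137 (edgeR without the filter, 2.46 on the log2 scale, adjusted p = 0.000281). The ratio of read rates was 6.28 (3.57 to 12.1). The share of mice with a Gdf15 read, 78.1% against 47.1%, gave a Fisher's exact p of 0.0527.

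The highest Gdf15 and Fgf21 counts of TDP10 + 12, and 1 of its 2 Adm2 counts of 22, came from the same mouse, which had 1084 CPM of choroid plexus markers. The part of that tissue in these counts was not tested. Without the 4 mice with high choroid plexus markers, the mean of the remaining 28 bigenic mice was 0.307 ± 0.209 CPM for Adm2, 0.114 ± 0.0914 for Fgf21 and 0.235 ± 0.236 for Gdf15 (SD), with two-sided permutation p-values of 1e-05, 0.000280 and 0.00106.

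From mouse to mouse the ISR genes varied together within the bigenic groups. No such relation was called within the 17 ctrl PBS mice, which are fewer than the 32 bigenic mice. For each of the 7 genes past the filter the group mean of log2 CPM was removed, and the deviations of the 49 mice were correlated for all 21 pairs. Pearson's r was above 0 in all 21, from 0.04 (Atf3 and Trib3) to 0.70 (Atf4 and Atf5), with a median of 0.38, and 14 pairs passed an adjusted permutation p of 0.05, all of them positive. By Spearman's rho 11 pairs passed. Over all 165975090 pairs of the 18220 genes, r was above 0 in 49.8%, at or above 0.38 in 2.69% and at or above 0.33, the smallest called value of the ISR genes, in 4.78%. These shares are over all genes tested, and those among pairs of genes called higher were not computed. The points share library preparation and depth, and genes scaled by the same factor are not independent.

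The pooled values differed from those of the single groups. Pearson's r was above 0 in 21 of 21 pairs in TDP10 + 12 (median 0.63, n = 10), in 20 in TDP-PBS (median 0.55, n = 10) and in 19 in TDP15 (median 0.50, n = 12). In ctrl PBS (n = 17) it was above 0 in 10 and below 0 in 11, with a median of −0.07 and a range of −0.62 (Ddit3 and Chac1) to 0.37 (Atf5 and Trib3), and 0 pairs passed by r or by rho, with 1 at an unadjusted permutation p under 0.05. In the 32 bigenic mice alone 18 of 21 pairs passed by r, with a median of 0.52, a level that 1.15% of all gene pairs reached in those mice. The share among pairs of genes called higher with the genotype was not computed. Whether r differed between ctrl PBS and bigenic mice was not tested. In ctrl PBS the coefficient of variation of Atf4 was 5.62%, against 15.5% in TDP-PBS. Atf3 and Trib3 had at most 25 and 16 reads per ctrl PBS mouse. With fewer mice, a narrow range and low counts, the lack of calls in ctrl PBS cannot show that the relation was absent there.

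**Figure D4:**
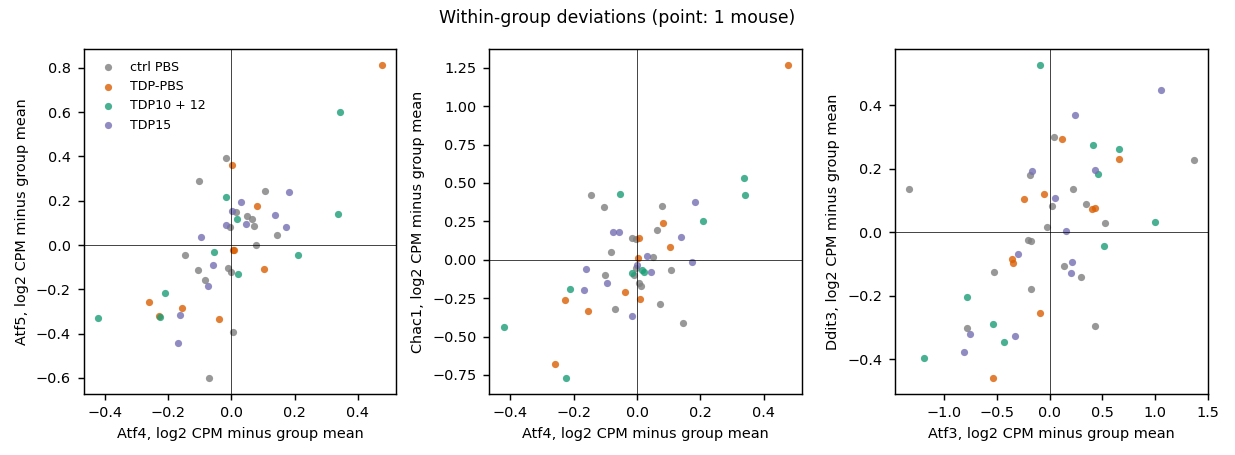
Deviation of log2 CPM from the group mean for Atf4 with Atf5, Atf4 with Chac1 and Atf3 with Ddit3, with 1 point per mouse coloured by group. Over all mice r is 0.70, 0.66 and 0.56, while over the ctrl PBS mice alone it is 0.29, −0.39 and 0.22, and a TDP-PBS mouse lies at the upper right end of the first 2.

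Atf4 and Atf5 had r = 0.70 (permutation p = 1e-05, the smallest that 100000 resamples can give, adjusted p = 0.000210) and rho = 0.63 (permutation p = 1e-05, adjusted p = 0.000210), and r was 0.61 without the 2 mice farthest from the median of Atf4. Atf4 and Chac1 had r = 0.66 (permutation p = 0.000100, adjusted p = 0.000672) and rho = 0.48 (permutation p = 0.00160, adjusted p = 0.00480), and r = 0.53 without those 2 mice. By group, r of Atf4 and Chac1 was 0.95 in TDP-PBS, 0.81 in TDP10 + 12 and 0.47 in TDP15, but −0.39 in ctrl PBS, and r of Atf4 and Atf5 was 0.86, 0.79, 0.80 and 0.29. Atf3 and Ddit3 had r = 0.56 (permutation p = 9e-05, adjusted p = 0.000672) and rho = 0.57 (permutation p = 0.000120, adjusted p = 0.000840), and r = 0.63 without the 2 mice farthest in Atf3, with 0.22 in ctrl PBS. The weakest pairs were those of Trib3 with Atf3 and with Sesn2, and the r of Trib3 with Atf4 of 0.33 (permutation p = 0.0278, adjusted p = 0.0417) fell to 0.12 without 2 mice, with rho = 0.20 (permutation p = 0.171, adjusted p = 0.189), so that this relation rests on those mice.

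The TDP-PBS mouse with 163 CPM of Atf4 was above its group's mean in 6 of the 7 genes, by 0.48 on the log2 scale for Atf4, 0.81 for Atf5, 1.17 for Trib3 and 1.27 for Chac1, but not for Atf3, at −0.06. At the other end, 7 mice, 6 of them bigenic, were below their group's mean in all 7 genes.

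Among all 18220 genes, those whose deviations from the group means over the 49 mice were most like Atf4 were Shmt2 (r = 0.70), Atf5 (r = 0.70) and Phyhipl (r = 0.68). For Atf5 they were Fgfr1 (0.72), Slc6a9 (0.71) and Atf4 (0.70), for Chac1 Gm38528 (0.66), Shmt2 (0.66) and Atf4 (0.66), and for Sesn2 Slc3a2 (0.67), Prss36 (0.65) and Gak (0.65). For Ddit3 they were Ppib (0.61), Rars (0.59) and C1qbp (0.58), for Atf3 Ddit3 (0.56), Gldn (0.55) and Ikzf1 (0.54), and for Trib3 Hat1 (0.56), Cryzl2 (0.56) and Cbx2 (0.55). Shmt2, a mitochondrial serine hydroxymethyltransferase, Slc3a2, the heavy chain of amino acid exchangers, and Slc6a9, a glycine transporter, were on the list of other ATF4 targets described next.

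The rest of the pathway was read from lists of its known genes, as counts in TDP-PBS against ctrl PBS by the same edgeR test. Of 20 genes for eIF2 kinases, eIF2 and its phosphatase, 7 were higher and 2 were lower, with a median log2 fold change of 0.06. Of 40 other ATF4 targets, 26 rose and 3 fell, and the median was 0.28. Of 20 genes of the IRE1 and ATF6 arms of the unfolded protein response, the arms that do not run through eIF2, 3 rose and 3 fell, and the median was −0.01. Over all genes tested 21.9% were called higher and 21.6% lower. The lists were chosen with earlier results of these data known, so their counts are not independent support.

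**Figure D5:**
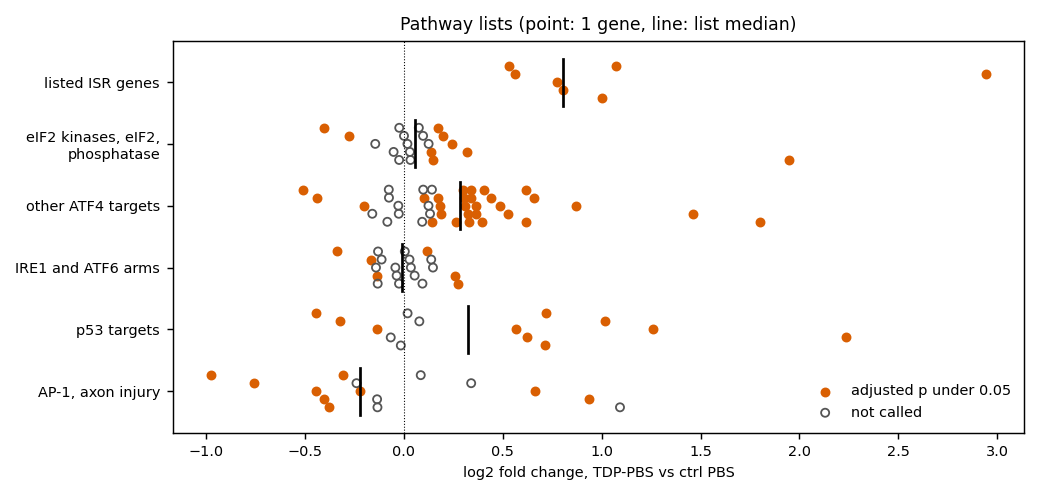
Log2 fold change of TDP-PBS against ctrl PBS for the listed ISR genes past the filter and 5 pathway lists, with 1 point per gene, filled where the adjusted p-value was under 0.05, and a line at each list's median. The median is 0.81 for the ISR genes, 0.28 for other ATF4 targets and −0.01 for the IRE1 and ATF6 arms.

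Of the 4 kinases, Eif2ak2, which encodes PKR and is also induced by interferons, moved most. It rose from 2.86 ± 0.641 CPM in ctrl PBS (SD, n = 17) to 11.1 ± 4.32 in TDP-PBS (SD, n = 10), a log2 fold change of 1.95 (SE 0.17, edgeR adjusted p = 1.98e-13). All 32 bigenic mice lay above every ctrl PBS mouse, as was seen for 1.16% of the genes tested. Eif2ak1 (HRI) rose by 0.25 (SE 0.06, edgeR adjusted p = 0.00119) and Eif2ak3 (PERK) by 0.14 (SE 0.05, edgeR adjusted p = 0.0277). Eif2ak4 (GCN2) was not called, at 0.02 (SE 0.05, edgeR adjusted p = 0.805). Ppp1r15a, the stress-induced subunit GADD34 that directs the phosphatase back to eIF2, rose by 0.32 (SE 0.07, edgeR adjusted p = 0.000144), while the catalytic subunits Ppp1cb and Ppp1ca fell by 0.40 and 0.28. The 7 called higher included Eif2b3 and Eif2b5, subunits of the exchange factor for eIF2, and Gcn1, the activator of GCN2. These are transcript levels, and phosphorylation of eIF2 was not measured.

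Of the other ATF4 targets, those with the smallest p-values were Pycr1, an enzyme of proline synthesis, Slc1a4, a transporter of neutral amino acids, and Eprs and Lars, which charge transfer RNA. Pycr1 rose from 1.62 ± 0.328 CPM in ctrl PBS (SD, n = 17) to 5.67 ± 1.55 in TDP-PBS (SD, n = 10), a log2 fold change of 1.80 (SE 0.14, edgeR adjusted p = 4.94e-15). Slc1a4 rose by 0.66, Lars by 0.49 and Eprs by 0.36. For all 4 genes every bigenic mouse lay above every ctrl PBS mouse, a separation seen for 1.16% of the genes tested. The 4 were named for their p-values in these same mice, so their separation is no separate support. Shmt2 rose by 0.53, Asns (asparagine synthetase) by 0.19 and Slc3a2 by 0.36.

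Other members of the list were not called. Psat1 and Phgdh, which make serine, had log2 fold changes close to 0 (−0.02 with edgeR adjusted p = 0.751 and −0.07 with adjusted p = 0.374), and Slc7a11, the cystine transporter, also missed the threshold (−0.16, edgeR adjusted p = 0.202). The 3 called lower were Vegfa, a vessel growth factor that hypoxia also controls, at −0.51, Xpot, which exports transfer RNA from the nucleus, at −0.44, and Gars, which charges glycine transfer RNA, at −0.20. Against ctrl PBS, 23 were called higher and 3 lower after peptides 10 and 12, and 25 higher and 4 lower after peptide 15. Of all genes tested, 20.8% were called higher after peptides 10 and 12 and 23.6% after peptide 15. The share of all genes called lower was not computed for either peptide group, so the counts called lower cannot be set beside it.

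In the IRE1 and ATF6 arms the genes with the smallest p-values were Syvn1 (0.28, SE 0.05) and Dnajb9 (0.26, SE 0.05), which rose, and Sel1l (−0.14, SE 0.04) and Creld2 (−0.34, SE 0.11), which fell. Hspa5, the chaperone BiP and the usual readout of these arms, was not called at −0.11 (SE 0.11, edgeR adjusted p = 0.431), nor was Xbp1 at 0.15 (SE 0.08, edgeR adjusted p = 0.123).

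Some ISR genes also answer to other factors, Atf3 to AP-1 and injury signals and Sesn2 and Atf3 to p53, so those lists were read beside them. The shares to set beside both lists are those over all genes tested, 21.9% called higher and 21.6% lower. Of 14 p53 targets 7 were called higher and 3 lower (median 0.32). Phlda3 (0.57, SE 0.07), Bbc3 (0.71, SE 0.09), Eda2r (2.24, SE 0.31) and Trp53inp1 (0.62, SE 0.10) had the smallest p-values. Of the 15 AP-1 and axon injury genes that could be tested 2 rose and 7 fell, and the median was −0.22. The smallest p-values were those of Klf6 (0.66, SE 0.06) and Gadd45g (0.93, SE 0.12), which rose, and Stmn2 (−0.40, SE 0.04) and Gap43 (−0.37, SE 0.08), which fell. Gadd45a is on both lists.

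Some cell type markers moved with the genotype as well, and their part in the ISR values was not tested. Over all genes tested 21.9% were called higher and 21.6% lower in TDP-PBS, so 1 of 6 markers called in a direction is near the share of all genes. Called higher in TDP10 + 12 and TDP15 were 20.8% and 23.6% of genes. Neuron markers summed to 5919 to 7638 CPM in ctrl PBS and 4432 to 5532 in TDP-PBS, with 3 of 6 lower and 0 of 6 higher. Microglia markers summed to 206 to 242 CPM in ctrl PBS and 247 to 336 in TDP-PBS, with 4 of 6 higher. Astrocyte markers summed to 627 to 849 and 720 to 1205 CPM, with only Gfap of 6 higher and Gja1 lower. None of 6 oligodendrocyte markers was called, meningeal fibroblast markers had 3 of 6 higher and endothelial markers 1 higher and 1 lower of 6. Choroid plexus markers had 0 of 6 called in TDP-PBS, 4 higher in TDP10 + 12 and 1 higher in TDP15. Of the T cell and blood markers 2 of 5 in the table, both hemoglobin genes, could be tested, and neither was called.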

How the data were processed

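Bulk RNA of neocortex from 49 mice (1 library each, 100 bp paired-end reads) was measured. The authors deposited raw read counts per gene on GRCm38.p6. The submitters' processing notes name HISAT, HISAT2, Bowtie, Bowtie2 and RSEM with no roles, and the versions, annotation and strand setting are not given in the sources used here. Counts that share exons with another gene are therefore uncertain.

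From these counts, genes with too few reads were removed (edgeR filterByExpr by group, minimum count 10, minimum total 15), libraries were scaled by TMM, and edgeR's quasi-likelihood test (edgeR 4.0.16, R 4.3.3) was fitted to all 49 mice by group without covariates, with Benjamini-Hochberg adjustment. The study's methods name DESeq2, which was run as an alternative (1.42.0), as were other normalizations, no filter, sex as a covariate and leaving out each mouse. The 3 genes below the filter were compared by two-sided permutation of CPM over mice and by Fisher's exact test of mice with a read. Intervals of read ratios and the floor of 3 counts cover counting error only. Correlations used log2 CPM with a prior count of 2, and their p-values were adjusted over 21 pairs. The fits were tested on simulated data. Each library is a separate mouse, and the closest pair of libraries within a group still differed by 7.77 times counting noise (chi-square per degree of freedom). The named genes are all 10 ISR genes, the listed genes with the smallest p-values in TDP-PBS or with an explained role, and the 3 genes most like each member. Mars1, Gfap, Gja1, Slc7a11, Eif2b3, Eif2b5 and Gcn1 were named after their values were seen. The members and lists were chosen with earlier results of these data known. Positions and promoters are from RefSeq and exon lengths and overlaps from GENCODE vM21, both on GRCm38.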

Additional observations from a re-analysis of the deposited data

Results flagged for a closer look

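Of 20 sets of a gene and a group of 4 to 10 mice, 6 held 1 mouse far from the rest by Dixon's 95% criterion. For independent sets of normal values chance would give about 1 set in 20. These sets share mice and correlated genes, and CPM of genes with few reads is not normal. The number of sets therefore cannot be read as an excess over chance. A single TDP-PBS mouse (replicate 4) accounts for 3 of them. It had 163 CPM of Atf4 where the next mouse had 126, 70.0 CPM of Atf5 where the next had 51.2, and 23.3 CPM of Chac1 where the next had 11.4. In TDP10 + 12, replicate 8 had 57.4 CPM of Atf5 where the next had 43.9. Also in TDP10 + 12, replicate 4 had 0.927 CPM of Gdf15 where the next had 0.346, and this mouse had 1084 CPM of choroid plexus markers. In TDP-PBS, replicate 3 had 0.738 CPM of Adm2 where the next had 0.395, and its meningeal fibroblast markers, 266 CPM in sum, were the highest of all mice. The part of these tissues in the Gdf15 and Adm2 counts was not tested. The groups of ctrl PBS and TDP15, with more than 10 mice, were not examined this way.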

How the results depend on the processing

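All 7 ISR genes past the filter kept their call and direction against ctrl PBS in each bigenic group with DESeq2 size factors, upper-quartile normalization, no filter, sex as a covariate, only the compared mice, or DESeq2 in place of edgeR, and none was called between bigenic groups or for the genotype by sex interaction under the alternatives run. With each of the 49 mice left out in turn, 7 were called against ctrl PBS and 0 between bigenic groups every time. Atf3 and Trib3, which are among the 7, passed the filter only because of the bigenic mice, in which they were higher. Trib3 came closest to losing its call, with an edgeR adjusted p of 0.0462 without TDP10 + 12 replicate 4 and 0.0454 without TDP15 replicate 9, while its range over the other alternatives was 0.00933 to 0.0210 for TDP10 + 12 and, for TDP15, 0.0124 to 0.0358. The 1 result that lost its call was Gdf15, whose share of mice with a read was 31.1 percentage points higher in bigenic mice with a Fisher's exact p of 0.0527, and the cause was not tested. Leaving out the 4 mice with high choroid plexus markers, an alternative chosen after seeing the data, changed no call. The number of gene pairs with a called correlation was 14, 18 in bigenic mice alone, 13 with a prior count of 0.5 and 0 in the 17 ctrl PBS mice alone, the last being chosen after seeing the data, and the cause was not tested. No paired analysis was possible because every library is a separate mouse and the labels share no replicate number between groups. Depth limits Fgf21, Gdf15, Adm2 and Trib3 most.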
